A study of Homo sapiens with 2 samples.

Results

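In the open chromatin map of the human embryonic kidney line 293T, 7303 distal peaks that had no counterpart in the T-cell line J76 lay packed together in 1503 clusters. They were chosen from the 84951 peaks of the 293T list on chromosomes 1 to 22 and X. A peak was a candidate if it overlapped no J76 peak by even 1 bp and if its summit lay over 1 kb from either end of every protein-coding gene, which 51392 peaks met. Candidates whose edges lay within just over 12 kb of each other were joined, and groups of at least 4 peaks were kept as clusters. The members were thus 14.2% of the candidates. Because the choice used the peak calls of both lines, the number, spacing and 293T-only state of the members describe the rule and are given with no test.

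The study prepared ATAC-seq libraries, in which a Tn5 transposase cuts accessible DNA and inserts sequencing adapters, with an enzyme purified in the submitters' own laboratory and 50000 cells per reaction. The 293T library came from embryonic kidney cells, named T293 in the sample labels and 293T in the protocol, a derivative of HEK293 cells that carries the SV40 large T antigen. The J76 library came from an acute T-lymphoblastic leukemia line, a Jurkat subline without T cell receptor chains. Both were untreated cultured cells in logarithmic growth, each line gave 1 library, and no difference between the lines therefore has a replicate check or a p-value.

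Open chromatin far from gene ends includes enhancers, which are DNA elements that bind transcription factors and raise the output of genes at a distance. Enhancers often come in runs. Joining elements over this distance is the usual first step in defining super-enhancers, long runs that lie near genes of cell identity, although that definition also ranks the runs by a histone mark or a bound factor, which these data do not hold. A peak list gives positions and peak strength only, so which gene a cluster acts on, if any, was not measured. The word neighbour below means the protein-coding gene that holds the middle of a cluster, or otherwise the gene with the nearest end. Distances from a cluster to its neighbour are counted from the middle of the cluster to the nearest end of that gene. Distances to a gene of a list are counted from the nearest edge of the cluster.

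Peaks at gene ends matched the labels of the lines for T cell genes and for genes of adherent cells. Of 8 T cell genes such as CD3E and LCK, 1 had a 293T peak within 1 kb of an end and 8 had a J76 peak. All 5 genes of adherent cells (KRT8, KRT18, CAV1, TJP1 and VIM) had one in 293T, against 1 in J76. Kidney genes such as PAX2 and LHX1 were less complete, with 5 of 8 in 293T and 3 of 8 in J76. No B cell gene had such a peak in either line. Of the myeloid genes 3 of 4 had one in 293T and 1 of 4 in J76. Of the erythroid genes 0 of 3 had one in 293T and 2 of 3 in J76. Over all protein-coding genes, 69.7% had such a peak in 293T and 64.6% in J76. In 293T the kidney count was under that share and the myeloid count above it.

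A small share of the members covered the start of an annotated transcript, and these are the members whose DNA sequence could be read. Such starts were mostly those of long non-coding RNAs or of alternative, internal transcripts of coding genes, since a peak with its summit within 1 kb of a coding gene's end could not be a member. The RefSeq promoter windows reach from 250 bases before a transcript start to 50 bases after it. Of 34789 distinct windows, 165 overlapped 142 members (1.94% of members), and 77 of those windows lay wholly inside a member. They belonged to 139 genes, 63 coding and 76 long non-coding. The 5 windows printed first lie wholly inside members and were chosen for the highest member folds or as genes of the pathways described below, after their values were seen. The last 2 are the starts of genes beside large clusters, where 293T had a peak and J76 had none. They are written 5′ to 3′ on the strand of the gene, with matches to an AP-1 motif (TGANTCA), a TEAD motif (GGAATG) or a forkhead motif (TGTTTAC) on either strand in capitals.
LINC01504 promoter window, GRCh38.p14 chr9:72305186-72305485, plus strand: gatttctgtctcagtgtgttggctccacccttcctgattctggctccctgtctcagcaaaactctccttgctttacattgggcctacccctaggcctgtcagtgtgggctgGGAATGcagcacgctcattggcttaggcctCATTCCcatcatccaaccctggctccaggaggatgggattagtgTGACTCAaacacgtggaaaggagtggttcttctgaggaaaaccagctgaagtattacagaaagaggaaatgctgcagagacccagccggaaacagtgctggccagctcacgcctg
EPCAM-DT promoter window, GRCh38.p14 chr2:47345025-47345324, minus strand: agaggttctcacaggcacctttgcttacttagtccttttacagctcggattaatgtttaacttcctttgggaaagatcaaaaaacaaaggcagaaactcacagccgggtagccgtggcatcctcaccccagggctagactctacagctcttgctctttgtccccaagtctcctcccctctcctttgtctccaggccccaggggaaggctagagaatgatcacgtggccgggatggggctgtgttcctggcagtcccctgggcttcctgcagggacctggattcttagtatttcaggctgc
BMPR1B promoter window, GRCh38.p14 chr4:95051427-95051726, plus strand: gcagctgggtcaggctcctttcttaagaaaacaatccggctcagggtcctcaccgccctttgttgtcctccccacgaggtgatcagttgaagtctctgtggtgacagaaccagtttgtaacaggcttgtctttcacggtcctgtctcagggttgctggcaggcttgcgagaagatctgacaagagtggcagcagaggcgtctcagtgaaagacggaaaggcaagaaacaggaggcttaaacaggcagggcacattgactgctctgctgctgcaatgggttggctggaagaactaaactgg
VGLL4 promoter window, GRCh38.p14 chr3:11582307-11582606, minus strand: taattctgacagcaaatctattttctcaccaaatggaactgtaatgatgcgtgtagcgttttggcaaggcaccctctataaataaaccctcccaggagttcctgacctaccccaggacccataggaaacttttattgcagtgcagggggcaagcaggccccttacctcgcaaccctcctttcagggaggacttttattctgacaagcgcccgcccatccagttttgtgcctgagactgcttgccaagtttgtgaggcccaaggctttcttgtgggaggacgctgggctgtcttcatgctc
CALD1 promoter window, GRCh38.p14 chr7:134891208-134891507, plus strand: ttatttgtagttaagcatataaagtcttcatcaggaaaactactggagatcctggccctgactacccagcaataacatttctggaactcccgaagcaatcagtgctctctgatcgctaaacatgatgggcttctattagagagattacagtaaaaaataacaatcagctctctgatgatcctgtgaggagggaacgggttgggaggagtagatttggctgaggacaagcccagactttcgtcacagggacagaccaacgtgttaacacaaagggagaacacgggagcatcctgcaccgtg
UNC5C promoter window, GRCh38.p14 chr4:95548924-95549223, minus strand: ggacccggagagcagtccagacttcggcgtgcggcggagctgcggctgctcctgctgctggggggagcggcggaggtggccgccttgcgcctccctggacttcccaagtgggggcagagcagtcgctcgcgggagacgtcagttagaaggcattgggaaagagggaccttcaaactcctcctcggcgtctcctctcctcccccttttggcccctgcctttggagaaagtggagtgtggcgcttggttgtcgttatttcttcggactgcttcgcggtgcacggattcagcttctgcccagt
SLITRK6 promoter window, GRCh38.p14 chr13:85799370-85799669, minus strand: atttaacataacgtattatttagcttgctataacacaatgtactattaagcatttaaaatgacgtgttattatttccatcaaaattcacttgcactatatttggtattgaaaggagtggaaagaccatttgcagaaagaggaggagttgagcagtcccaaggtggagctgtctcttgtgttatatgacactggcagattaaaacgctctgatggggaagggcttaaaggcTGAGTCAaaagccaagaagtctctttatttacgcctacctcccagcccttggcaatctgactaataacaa
The LINC01504 window holds 2 TEAD matches and 1 AP-1 match and lies in the member with the highest fold, 14.1. The SLITRK6 window holds 1 AP-1 match, and the other 5 windows hold none of the 3 motifs. A match is a description of letters, and binding was not measured.

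Over all 165 windows that overlapped a member, 15.2% held the AP-1 motif (95% Wilson interval 10.5 to 21.4), against 12.3% of the 919 windows overlapping other distal 293T-only peaks and 7.69% of all windows. The 165 windows overlapped 142 members, so some share a member and the interval is too narrow. Only 77 lay wholly inside a member, so a match can lie outside the peak. AP-1 factors, dimers of FOS and JUN proteins, often bind enhancers of adherent cells. The TEAD motif, read by the DNA-binding partners of YAP1, was in 16.97% of the member windows, 18.5% of the windows at other distal 293T-only peaks and 14.1% of all windows. The forkhead motif was in 6.67%, 5.55% and 3.42% in the same order of window sets. The GC-rich SP motif (GGGCGG), a mark of CpG-island promoters, went the other way, at 26.7%, 35.7% and 44.9%. Median GC content was 50.7% in the member windows, 54.3% at other distal 293T-only peaks and 58.7% over all windows. No motif string contains another, though matches can share bases. The member windows thus lay within counting error of the windows at other distal 293T-only peaks for AP-1, TEAD and forkhead, and their lower GC content accompanied each difference from all windows, its part in them not tested.

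Clusters also covered microRNA genes. Of 1558 RefSeq hairpins, 17 lay in the span of a 293T cluster and 4 in the span of a J76 cluster built by the mirrored rule, and 6 overlapped a member peak. The spans total 30870 kb for the 293T clusters and 9099 kb for the J76 clusters, so the larger count came with the larger span. Whether hairpins were more frequent in the spans than elsewhere was not tested. The mature RNAs of 3 of these 6 are shown because they sit in clusters described below or belong to families known by their seed. The seed (bases 2 to 8, in capitals) is the stretch that pairs with target transcripts.
hsa-miR-30a-5p: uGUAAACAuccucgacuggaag
hsa-miR-30a-3p: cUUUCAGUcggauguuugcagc
hsa-miR-615-5p: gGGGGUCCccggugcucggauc
hsa-miR-615-3p: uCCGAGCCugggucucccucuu
hsa-miR-3666: cAGUGCAAguguagaugccga
The miR-30a hairpin overlapped a member of fold 3.16 in a cluster of 5 peaks whose neighbour was OGFRL1. The same cluster held the member with the highest −log10 q of all members, 120, with a fold of 8.89, over the starts of the long non-coding RNAs LINC00472 and LINC01626. Its 5p arm shares a seed with miR-30c-5p and miR-30e-5p. The miR-615 hairpin, in the HOXC group of genes, overlapped a member of fold 3.01, and neither of its arms shared a seed with another listed miRNA. The miR-3666 hairpin, inside FOXP2, lay in a member of fold 7.24 and −log10 q 66.2, and its seed is that of miR-130b-3p, miR-301a-3p, miR-301b-3p, miR-454-3p and miR-4295. Peaks at a hairpin do not show that the RNA was made.

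Most clusters were small. Of the 1503 clusters, 869 (57.8%) held exactly 4 peaks, 343 held 5 and 136 held 6, and 26 clusters with at least 10 peaks held 305 members. The largest held 18 peaks, a size reached by 2 clusters. With the lines exchanged, the same rule gave 395 J76 clusters with 2045 peaks, the largest of 34, from 26678 candidates, so 293T had 3.81 times as many clusters. That ratio turned round, to 0.768, when only the 58730 strongest 293T peaks were used, the number in the J76 list. This left 364 clusters in 293T, and the shorter 293T list also barred fewer J76 peaks from being candidates. The number of clusters therefore cannot be told apart from the length of the lists, and the depth of both libraries is unknown. With the same minimum −log10 q of 5 or 10 in both lists, their lengths not made equal, the ratio was 2.54 or 1.95. Just outside the threshold, 2264 groups of 3 peaks had a median fold of 3.70 and a median −log10 q of 6.21, and the clusters of 4 just inside had 3.59 and 6.18. In 332 of those groups of 3 the next candidate lay within 15 kb.

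**Figure D1:**
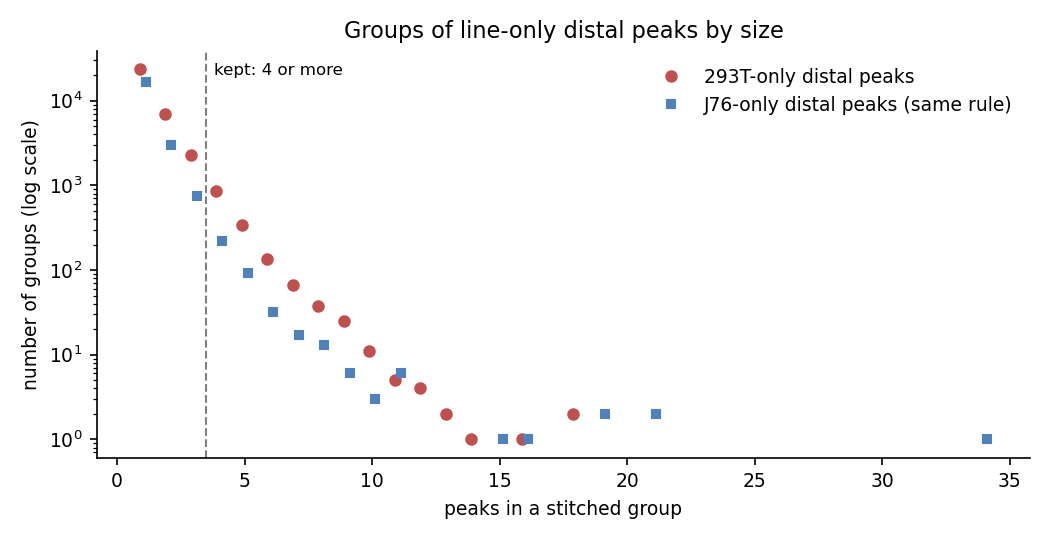
Number of stitched groups (y axis, log scale) by number of peaks in the group (x axis), for 293T-only distal peaks (red circles) and J76-only distal peaks under the same rule (blue squares), 1 library each. Groups right of the dashed line were kept: 1503 in 293T, most of 4 or 5 peaks, and 395 in J76, where the largest group held 34 peaks.

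Members were not strong peaks. Their median fold, the authors' enrichment over background at the summit, was 3.55 (quartiles 3.05 and 4.38, highest 14.1), against 3.77 for other distal 293T-only peaks and 5.69 for distal 293T peaks shared with J76. A fold of at least 5 was reached by 15.9% of members, 22.7% of other distal 293T-only peaks and 62.6% of shared distal peaks. The median −log10 q was 6.27 in members, 6.10 in the other 293T-only peaks and 16.0 in shared peaks, and the median widths were 317, 302 and 434 bp in the same order. Clusters of 7 to 10 peaks had median folds of 3.39 to 3.501, under the 3.59 of clusters of 4. Raising the minimum −log10 q to 5 left 493 clusters, and raising it to 10 left 78.

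The highest and lowest member of a cluster differed 1.79-fold in the median cluster, and all members lay within a 2-fold range of each other in 65.4% of clusters. The SD of log2 fold within clusters was 0.40, and the SD of the cluster means was 0.24. No member reached a fold of 5 in 46.8% of clusters, and 103 clusters (6.85%) held a member of fold 8 or more.

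A typical cluster spanned 18.9 kb (quartiles 13.2 and 25.9 kb, longest 114 kb), with 2.42 peaks per 10 kb, and its peaks covered 10.01% of the span. Together the clusters spanned 30870 kb. The median gap between neighbouring members was 4931 bp, and 32% of the gaps were under 1 kb. Whether such neighbours are separate sites or pieces of 1 broader open stretch cannot be told apart from the lists. In 24 clusters the peaks covered at least 50% of the span, with a median span of 2.43 kb. Among them were clusters of 4 whose neighbours were NRXN3 (80.9% covered), WNT5A (75.3%) and CD28 (67.6%), the last a T cell gene. The cluster with CD28 as neighbour had member folds from 3.68 to 4.56 in 293T and lay over 50 kb from that gene.

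In 78.7% of clusters no J76 peak lay anywhere in the span, and 12.6% of spans held at least 1 peak found in J76 only. Among the mirrored J76 clusters, 57.7% of spans held no 293T peak and 26.8% held a peak found in 293T only. The 293T list is the longer one, and the share of empty spans of such lengths elsewhere in the genome was not measured. A J76 peak lay within 1 kb of 320 members (4.38%), without overlapping them, and 159 members had a summit 1 to 2 kb from a gene end. An uncalled site in J76 may be open below the calling threshold.

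Many clusters lay inside genes, away from their ends. The summit was inside a protein-coding gene for 56.2% of members (55.0 to 57.3), against 47.4% of other distal 293T-only peaks (46.9 to 47.8), 42.4% of shared distal peaks and 30.4% of peaks in J76 clusters (28.4 to 32.4). These 95% Wilson intervals cover counting error only, and as members of a cluster share their gene, they are too narrow. Counting each cluster as 1 item, the middle was inside a gene for 55.1% of 293T clusters (52.6 to 57.6) and 34.7% of J76 clusters (30.2 to 39.5). No gene end fell in the span of 90.2% of 293T clusters, and 50.2% lay wholly within 1 gene. J76 clusters reached further out: 10.4% of 293T members and 41.6% of J76 cluster peaks lay over 500 kb from a gene end. Many of the largest J76 clusters lay at or next to centromeres. Among them were groups of 34, 21 and 19 peaks on chromosome 10 and of 19 on chromosome 5. The J76 shares given here were not computed without such clusters, so their part in the differences from 293T was not tested.

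Inside genes, 293T clusters lay more toward the transcription start than toward the other end. Of the 693 clusters in a gene whose strand could be read, 60.6% (56.9 to 64.2) had their middle between the start and the midpoint of the gene, against 52.4% (51.6 to 53.1) of other distal 293T-only peaks. J76 clusters gave 57.9% with a wide interval (48.7 to 66.6, n = 114), which includes the 293T value. Dividing each gene into 4 equal stretches from its start, the 293T clusters were spread as 28.9%, 31.7%, 22.9% and 16.5%, so the stretch nearest the gene's 3′ end was the emptiest. Other distal 293T-only peaks were spread as 26.8%, 25.6%, 24.7% and 22.9% in the same order.

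**Figure D2:**
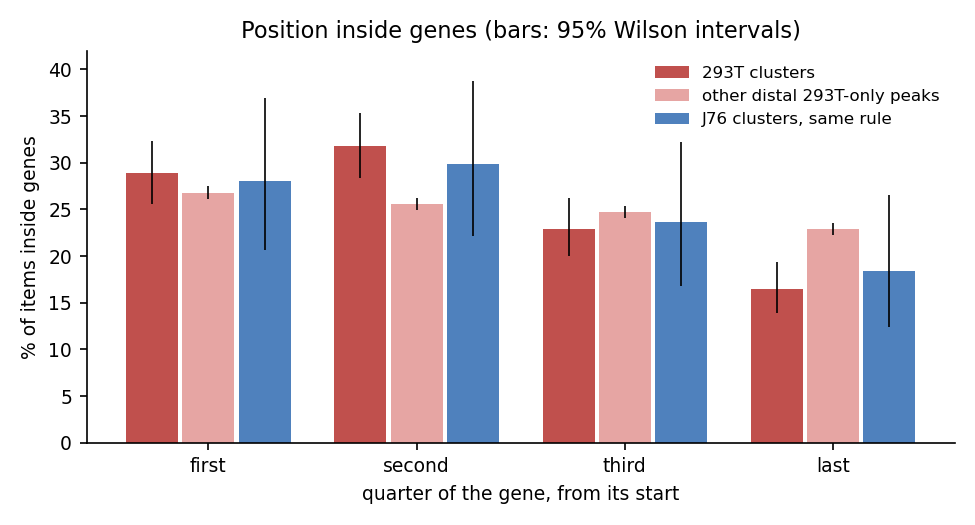
Share of items inside genes (y axis, percent) in each of 4 equal stretches of the gene from its start (x axis), for 693 293T clusters (dark red), 17267 other distal 293T-only peaks (light red) and 114 J76 clusters (blue), with 95% Wilson intervals. The last stretch holds 16.5% of the 293T clusters and 22.9% of the other 293T-only peaks.

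Clustering was uneven along the genome. On chromosome 13, 23.3% of the candidates were members (114 clusters), the highest share of the 23 chromosomes, followed by chromosome 7 with 17.1%. Chromosome 1 held the most clusters, 209. At the other end, chromosome 22 had 1 cluster (1.03% of its candidates) and chromosome 19 had 4 (3.23%). These chromosomes also differed in the density of 293T calls: the ratio of 293T to J76 peaks was 2.61 on chromosome 13, 0.909 on chromosome 19 and 0.889 on chromosome 22. Chromosome X had the second highest ratio, 2.30, with an intermediate share of 13.1%. In windows of 10 Mb the median ratio was 1.41, and clusters sat in windows with a median of 1.97 (quartiles 1.505 and 2.62). The 30 windows at over 2 times the median ratio held 330 clusters (21.96%), 22.9% of members and 16.7% of all candidates. Yet 316 clusters lay in windows at or under the median, and 1173 clusters remained when the 30 windows were left out. The part of such regional differences between the lines, whatever their source, in the clustering was not tested.

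**Figure D3:**
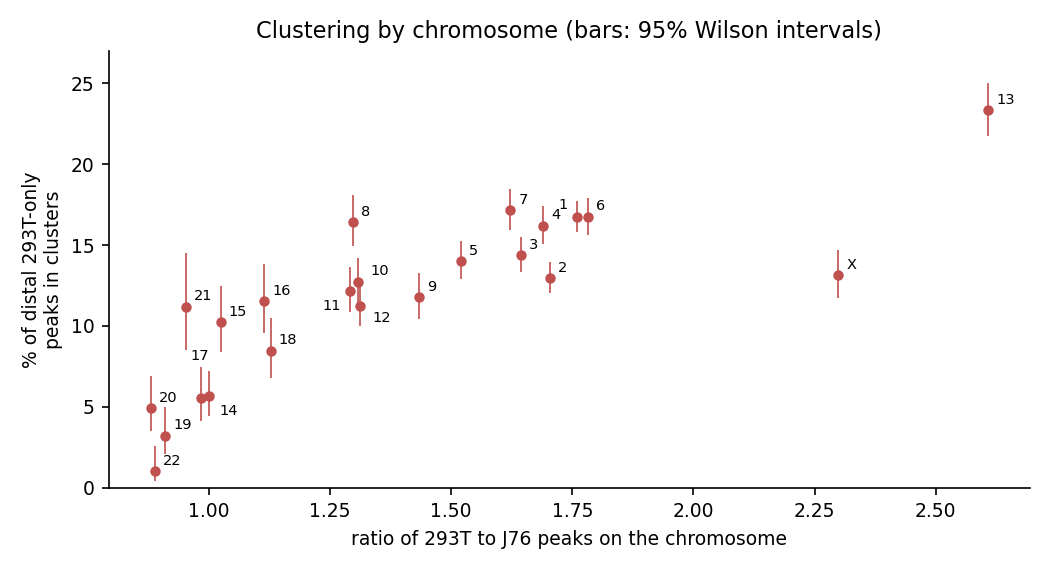
Share of distal 293T-only peaks that lay in clusters (y axis, percent, with 95% Wilson intervals) against the ratio of 293T to J76 peaks (x axis), 1 point per chromosome. Chromosome 13 stands highest on both axes, with 23.3% and a ratio of 2.61, and chromosomes 19, 20 and 22 lie lowest, under 5% with ratios under 1.

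The cluster on chromosome X whose nearest gene end was that of PLS3, an actin-bundling protein, was unlike the others in its spacing. It held 18 members in 49.8 kb (X, 115843456 to 115893244), with its middle 217489 bp from the PLS3 end. Its folds were low and even, from 2.05 to 3.97 with a median of 3.504. The summits came at regular steps: of the 17 distances between neighbouring summits, 12 lay between 2972 and 3059 bp, within 5% of the median of 2979 bp. Among the 291 293T clusters of at least 6 peaks no other had more than 4 distances that close to its own median, and among 84 J76 clusters of that size none had more than 4. This comparison was made after the regular steps had been seen. J76 had 2 peaks in the span, both shared with 293T. As background, a macrosatellite named DXZ4, a tandem array of units of about this length, lies on the X chromosome near PLS3. No repeat annotation was used here, and whether the members lie in that array, or how reads of near-identical units were placed, was not tested.

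**Figure D4:**
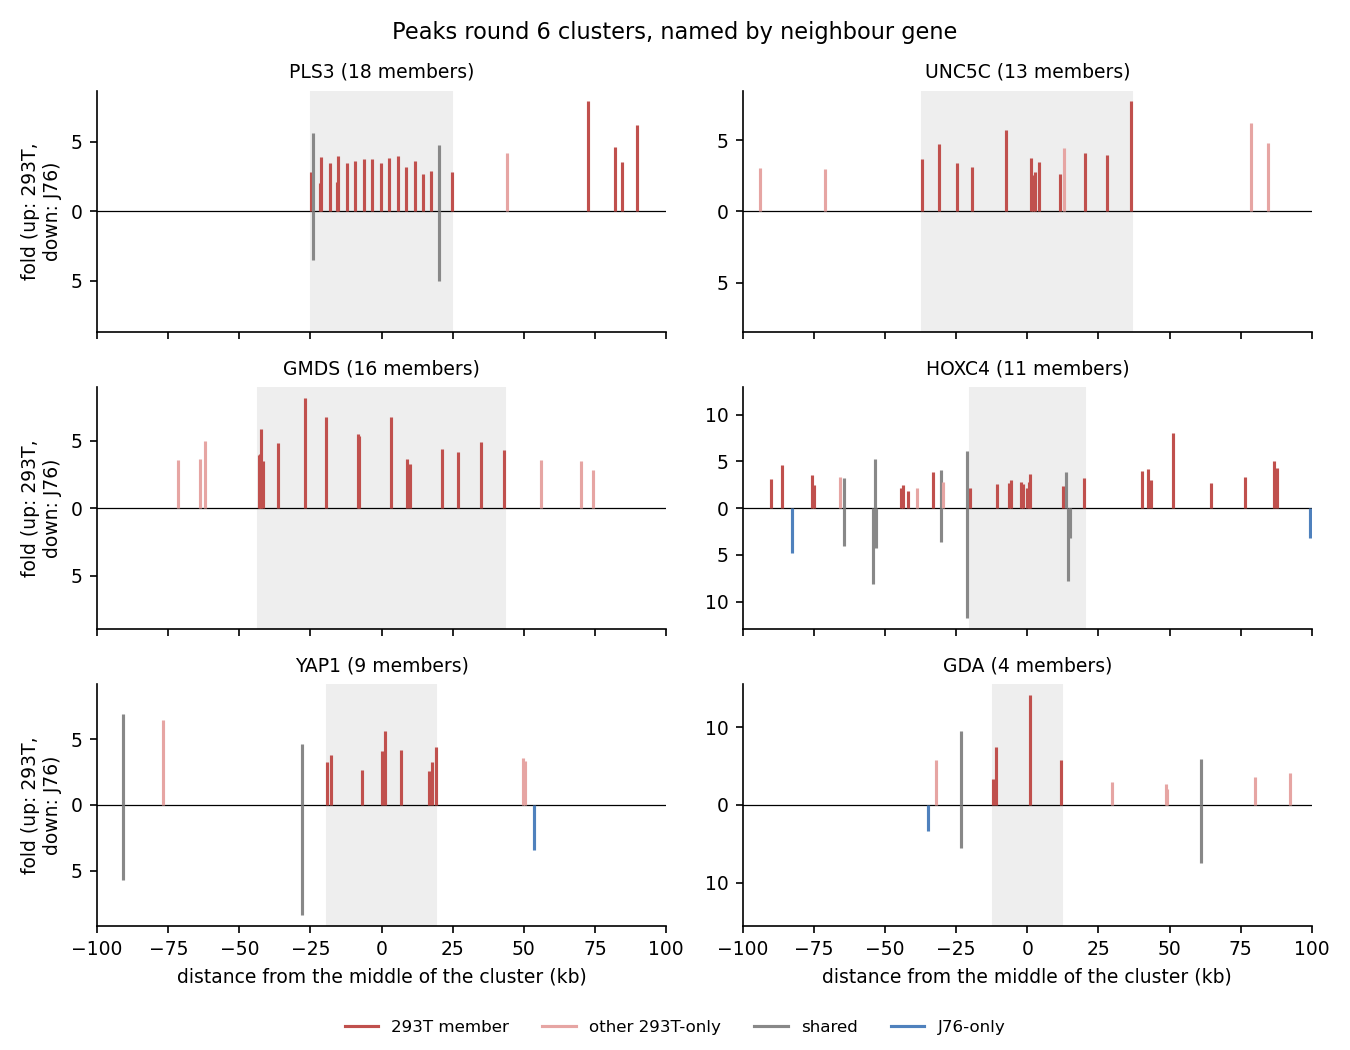
Peaks within 100 kb of the middle of 6 clusters, with the authors' fold on the y axis (293T upward, J76 downward) and distance from the cluster's middle in kb on the x axis. Grey shading is the span of the named cluster, dark red marks members (of that or a nearby cluster), light red other 293T-only peaks, grey shared peaks and blue J76-only peaks. The PLS3 cluster shows evenly spaced peaks of near-equal fold, the UNC5C and GMDS spans hold no J76 peak, and the GDA cluster holds the member with the highest fold, 14.1.

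The other cluster with 18 members covered 114 kb of chromosome 13 (62299729 to 62413474), 940752 bp from the nearest gene end, that of PCDH20, a cell adhesion protocadherin. Its folds ran from 2.46 to 6.08, J76 had 1 peak in the span, and the 10 Mb window had 9.92 times as many 293T as J76 peaks. The same window and its neighbours on chromosome 13 held other crowded gene deserts. PCDH9, another protocadherin, was the neighbour of 22 clusters with 117 members, 8 of them inside the gene, and KLHL1 and PCDH20 of 6 clusters each. SLITRK6 and SLITRK1, transmembrane proteins of neurons, were neighbours of 5 clusters each with 34 and 22 members, in a window with a ratio of 8.15. Both had a boundary peak in 293T only, with folds of 8.43 at SLITRK6 and 6.07 at SLITRK1. The largest SLITRK6 cluster held 13 peaks of fold 2.88 to 4.94, 506757 bp from the gene.

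Another crowded stretch without coding genes lay on chromosome 7, at or next to the centromere. ZNF716, a zinc finger gene with no boundary peak in either line, was the nearest gene to 16 clusters with 86 members. The largest of them, 12 peaks of fold 2.99 to 6.37 between 58596498 and 58658186, was 1153783 bp from the gene, and J76 had no peak in it. The largest J76 group, of 34 peaks, lay on chromosome 10 between 40891824 and 41048160, also at or next to a centromere. Placement of reads in repeat-rich DNA was not tested.

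Among the other large clusters most lay inside long genes. GMDS, which makes GDP-fucose for protein glycosylation, held 16 members in 86.6 kb of chromosome 6, with folds from 3.27 to 8.13 (median 4.59), the highest median of the 6 clusters with the most peaks. Its strongest 3 peaks had folds of 8.13, 6.76 and 6.74, and no J76 peak lay in the span. DNM3, a dynamin of endocytosis, held 11 members with folds of 2.91 to 8.05, and 1 J76-only peak lay among them. ADGRL2, an adhesion G protein-coupled receptor, held 12 in 36.2 kb with folds of 2.27 to 4.01. The first ADGRL2 member was 3434 bp wide, the widest of all members, and covered the starts of internal ADGRL2 transcripts. TNFAIP8, a regulator of cell death, held 12 members of fold 2.22 to 6.07, but J76 had 6 peaks in that span, 4 of them found in J76 only. The cluster at IGF1R, the receptor of insulin-like growth factor, had 12 members of fold 2.22 to 9.12. It ran across an end of the gene, with its middle outside. That cluster and the one inside SPMIP2 (11 members, folds 2.78 to 6.86) each had at most 1 J76 peak.

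The strongest members lay in clusters of 4, 5, 10 and 7 peaks. The highest fold, 14.1 with −log10 q 89.2, was in a cluster of 4 on chromosome 9 whose nearest gene end was that of GDA, guanine deaminase, at 44434 bp. The other 3 members had folds of 3.31, 7.44 and 5.82, and the peak of 14.1 covered the start of LINC01504 printed above. A cluster of 5 on chromosome X, 289502 bp from EDA2R, a receptor of ectodysplasin, had members of fold 5.67, 2.43, 5.32, 5.42 and 13.5. A cluster of 10 on chromosome 6, nearest to the provisional gene LOC128966717, had 1 peak of fold 12.9 and 9 of 2.65 to 7.34. In ETV1, an ETS-family transcription factor, 7 members included 1 of fold 11.7, and the other folds ran from 2.87 to 5.17. J76 had no peak in the span of any of these 4 clusters.

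The densest clusters of at least 6 peaks were weak throughout. ZNF423, a zinc finger factor of neural and fat cell development, held 6 members in 4.03 kb with folds of 2.17 to 3.96. BCL11B, a zinc finger factor required for T cell development, held 6 in 5.82 kb with folds of 2.09 to 3.93, in 293T and with no J76 peak in the span. TOR1AIP1 and PDLIM5 had 6 each in 9.36 and 10.4 kb. The highest fold in any of these 4 clusters was 3.96.

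A boundary peak, meaning a peak within 1 kb of a gene end, was present in 293T only at 180 of the 1106 distinct neighbour genes of the clusters. That is 16.3% (14.2 to 18.6), against 11.4% (10.8 to 12.1) of the 9155 genes that were neighbours of other distal 293T-only peaks alone and 9.09% of all 19974 protein-coding genes. Among the 271 neighbours of J76 clusters the 293T-only share was 8.12% (5.42 to 11.985) and the J76-only share 9.59%, while 2.17% of the neighbours of 293T clusters had one in J76 only. Most neighbours of 293T clusters, 64.9%, had boundary peaks in both lines, and 16.6% had none. A peak with its summit within 1 kb of a gene end could not be a member. A member with its summit further out can still reach into that window, and it then counts as a boundary peak. Such cases were not taken out, although 159 members had a summit 1 to 2 kb from a gene end. All boundary peaks come from the same 2 libraries.

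Gene length and region moved with this share. Neighbours of 293T clusters had a median length of 117 kb, against 44.6 kb for neighbours of other distal 293T-only peaks and 24.2 kb over all genes, and over all genes of the same length classes the 293T-only share was 11.8%. Among genes under 10 kb the share was 24.5% for neighbours of 293T clusters and 8.27% for all genes. Among genes over 200 kb it was 16.9% and 17.6%, so the long neighbours did not stand above other long genes. In the 30 windows of high ratio 24.4% of neighbours had a 293T-only boundary peak (18.7 to 31.2), against 14.7% (12.54 to 17.1) in the other windows and 13.1% in windows at or under the median ratio. The part of region in the difference was not tested.

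Gene groups differed in how often a cluster overlapped a gene or lay within 50 kb of it. This held for 6.91% of all protein-coding genes (1.97% for J76 clusters), and it climbed with gene length, with 3.23% of genes under 10 kb, 4.14% at 10 to 50 kb, 10.5% at 50 to 200 kb and 25.4% over 200 kb. Each list is therefore set beside all genes of the same length classes. Where a list is also given under another setting, the share beside it is over all genes and is not matched for length. These shares are descriptions without a test. HOX genes (43.6%, with 3.37% for genes of their lengths), axon guidance genes (38.5% and 16.2%) and the YAP/TEAD pathway (36.4% and 10.5%) had the highest shares. Markers of the mature nephron, T cell surface, leukocytes, B cells and hepatocytes had none (0 of 18, 22, 20, 16 and 16 genes), where the shares for genes of their lengths were 7.70%, 4.06%, 7.76%, 9.02% and 5.86% in the same order, which amount to fewer than 2 genes in each list. Of 390 olfactory receptors 3 (0.769%, with 3.52% for their lengths) had a cluster in reach.

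**Figure D5:**
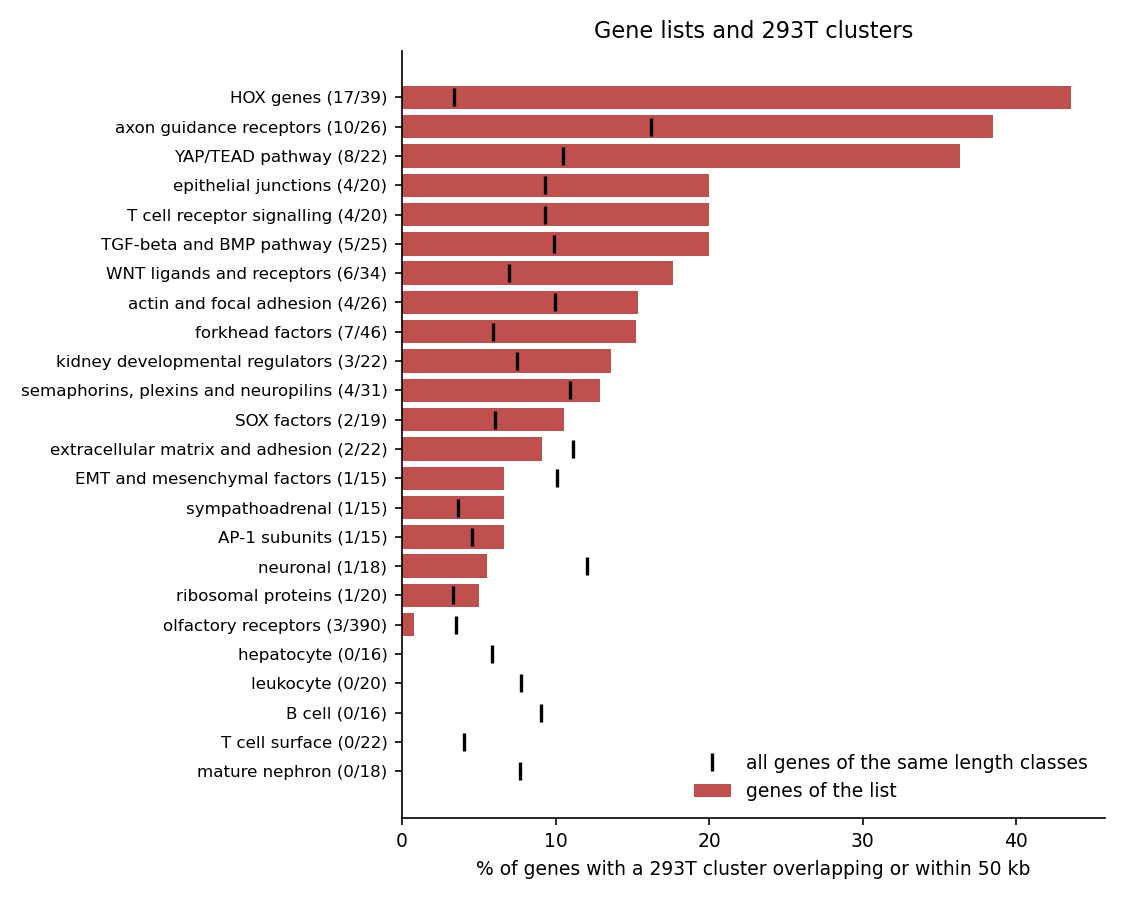
Share of the genes in each of 24 lists with a 293T cluster overlapping the gene or within 50 kb of it (bars, percent, with counts beside the list names). Black ticks give the share over all protein-coding genes of the same length classes; HOX genes stand highest at 43.6% beside a tick at 3.37%, and 5 lists have no such gene.

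HOX genes encode the homeodomain factors that set position along the body axis, and they lie in dense groups, so a single cluster counts for many genes. The 17 genes came from 2 of the 4 groups: 9 HOXC genes and 8 HOXD genes, with all of the HOXD genes reached by 1 cluster of 4 weak peaks (folds 1.88 to 2.35) at HOXD11. The main HOXC cluster held 11 members over 40.4 kb of chromosome 12 (54019111 to 54059463), across HOXC6, HOXC5 and HOXC4 and over the miR-615 hairpin. The folds were 2.18, 2.56, 2.64, 3.01, 2.84, 2.58, 2.10, 2.81, 3.68, 2.39 and 3.27 from left to right, an even low run with 1 shared peak inside it. The strongest boundary peak of HOXC6, HOXC5 and HOXC4 alike had a fold of 6.06 in 293T and 11.7 in J76. HOXC11 and HOXC9 had a boundary peak in 293T only, of fold 3.28 and 2.15, and HOXC13, HOXC10 and HOXC8 had one in both lines. With distal defined as over 5 kb from a gene end the list fell to 3 of 39 genes (7.69%), beside 5.20% of all genes.

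Axon guidance genes, which steer growing nerve fibres and also act in kidney and vessel development, were near clusters in 10 of 26 cases. SLIT2 and SLIT3 encode secreted ligands, and ROBO1, ROBO2, ROBO3 and ROBO4 their receptors. SLIT2 held 14 members in 57.7 kb with folds of 2.001 to 3.68, and its boundary peak was in both lines, with a fold of 2.97 in 293T and 10.4 in J76. SLIT3 held 9 members of fold 2.81 to 6.54 in its largest cluster and a boundary peak in 293T only, of fold 7.17. ROBO1 had 14 members in 2 clusters and ROBO2 had 12 in 3, and both had a boundary peak in 293T only, of fold 5.64 and 9.80. The cluster at UNC5C, a repulsive netrin receptor, had 13 members in 73.9 kb that reached past the gene, with folds from 2.52 to 7.72 and no J76 peak. Its boundary peak, fold 4.43 in 293T and none in J76, lies inside that span at the start printed above. EPHA3, EPHA7 and the ephrin EFNA5, which signal by cell contact, had 6, 11 and 10 members nearby and boundary peaks in both lines. Without the windows of high ratio 6 of the 26 genes were near a cluster. The share over all genes was then 6.02%, not matched for length, and 13 of the 26 genes are over 200 kb long.

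The YAP/TEAD pathway, which carries signals of cell contact and stretch in adherent cells, had 8 of its 22 genes near a cluster. The co-activator YAP1 held 9 members in 38.5 kb of chromosome 11, with folds of 3.23, 3.79, 2.64, 4.11, 5.61, 4.18, 2.57, 3.28 and 4.41. All 9 lay inside the gene, and J76 had no peak in the span, although the YAP1 boundary peak was in both lines, with a fold of 4.65 in 293T and 8.37 in J76. The second co-activator WWTR1 (TAZ) had 6 members and no boundary peak in either line. TEAD1, a DNA-binding partner, and VGLL4, its repressor, had 4 members each. PTPN14, a phosphatase that restrains YAP1, held 8 members of fold 2.43 to 6.27, and AMOT, CCN1 and CRIM1 had 6, 7 and 6 nearby. None of the 8 genes had a boundary peak in 293T only. Without the windows of high ratio 4 of the 22 remained, and with a −log10 q of at least 5 there were 3, beside 6.02% and 2.69% of all genes. Neither of these shares is matched for length.

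Signalling genes of the TGF-beta, BMP and WNT families showed smaller shares. The TGF-beta and BMP list had 5 of 25 genes (20.0%, with 9.91% for their lengths): TGFBR3, a co-receptor, with 12 members in 2 clusters, the receptors BMPR1B and BMPR1A with 9 and 4, LTBP1, which stores the ligand, with 5, and SMAD3, the transducer, with 4. BMPR1B had a boundary peak in 293T only (fold 5.04), and a member of fold 8.03 covered the internal start printed above. The WNT list had 6 of 34 (17.6% and 6.98%). The ligands WNT2, WNT5A and WNT16 had 5, 4 and 5 members, and the boundary peaks of WNT2 and WNT5A were in 293T only, with folds of 3.78 and 5.42. ROR1, a receptor for WNT5A, had 30 members in 4 clusters, the most of any gene of the lists. FZD4, a Frizzled receptor, had 8 and RYK, a co-receptor, had 4. The forkhead list had 7 of 46 (15.2% and 5.92%), with 24 members in 5 clusters at FOXP1, 9 at FOXP2 and 4 each at FOXA1, FOXK2, FOXD2 and FOXE3. FOXD2 and FOXE3 share 1 cluster. With distal defined as over 5 kb from a gene end the forkhead list fell to 3 of 46 (6.52%, beside 5.20% of all genes), and with lncRNA ends barred to 4 of 46 (8.70%, beside 6.33%).

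Of 22 kidney developmental regulators, 3 were near a cluster (13.6%, with 7.51% for their lengths): EYA1 with 4 members, SIX2 with 5 and GATA3 with 4. Only the EYA1 cluster overlapped its gene. The SIX2 cluster lay 23207 bp away with SIX3 as its neighbour, and the GATA3 cluster lay 48925 bp away inside TAF3. With a −log10 q of at least 5, and with equal list lengths, 0 of the 22 were near a cluster, beside 2.69% and 2.04% of all genes. EYA1, a phosphatase and co-activator of kidney development, had a boundary peak in 293T only, of fold 2.92. Epithelial junction genes had 4 of 20 (20.0% and 9.31%), PKP4, PARD3, EPCAM and GRHL2. EPCAM, an adhesion protein of epithelia, had 4 members nearby with folds of 9.81, 3.25, 10.7 and 4.18, the peak of 10.7 lying over the start of its divergent transcript EPCAM-DT printed above. Its boundary peak was in 293T only, with a fold of 3.55. Actin and focal adhesion genes had 4 of 26 (15.4% and 9.995%), among them CALD1, a regulator of actin contraction, with 8 members. In CALD1 the strongest member, of fold 6.10 and −log10 q 64.7, covered the internal start printed above. Semaphorins, plexins and neuropilins had 4 of 31 (12.9% and 10.975%), led by SEMA3C with 16 members, and extracellular matrix genes had 2 of 22 (9.09% and 11.2%), LAMC1 and NID1.

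T cell receptor signalling genes had 4 of 20 near a 293T cluster (20.0%, with 9.34% for their lengths). They had 3 of 20 near a J76 cluster, beside only 1.97% of all genes, not matched for length. Without the windows of high ratio 2 of the 20 were near a 293T cluster, beside 6.02% of all genes, also not matched. FYN, a kinase, had 15 members in 3 clusters, the nearest large one inside TRAF3IP2 at 44801 bp. THEMIS, an adaptor of T cell selection, had 5 members of fold 2.72 to 3.99 inside the gene, while its boundary peak was in J76 only, with a fold of 6.10. BCL10, an adaptor in NF-kB activation, had 4 members within 50 kb. The remaining lists gave 2 of 19 for SOX factors (SOX4 and SOX5; 10.5% with 6.04% for their lengths), 1 of 15 for factors of the epithelial to mesenchymal transition (ZEB2, with 14 members; 6.67% with 10.1%) and 1 of 15 for AP-1 subunits (JUN; 6.67% with 4.56%). They gave 1 of 15 for sympathoadrenal genes (HAND1; 6.67% with 3.66%), 1 of 18 for neuronal genes (MAP2; 5.56% with 12.04%) and 1 of 20 for ribosomal protein genes (RPLP0; 5% with 3.33%).

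Most neighbour genes, 873 of 1106, had 1 cluster, 166 had 2 and 67 had at least 3. Outside the windows already described, BRINP3, a neural gene, had 9 clusters with 41 members, all outside the gene. NFIA, a factor of glial development, had 6 clusters with 26 members, 4 of them inside the gene, in a window with a ratio of 4.37. CNTNAP2, a neuronal adhesion protein, had 6 with 30 members, 5 inside. FOXP1 and MID1 each had 5 clusters, all inside the gene, with 24 and 23 members. MID1, a microtubule-bound ubiquitin ligase, had a boundary peak in 293T only, of fold 5.82. NR2F1, a nuclear receptor of early nervous system development, had 5 clusters with 26 members, none inside, and boundary peaks in both lines, with folds of 2.89 in 293T and 3.92 in J76. ZNF703, a zinc finger repressor, had 6 clusters with 35 members around a gene of 4.24 kb, in a window whose ratio of 1.30 was under the median.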

How the data were processed

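Open chromatin peaks were used from 1 ATAC-seq library of 293T and 1 of J76. Bowtie2 (a read aligner) and MACS2 (a peak caller) appear in the submitters' processing notes; versions, settings, duplicate removal and cut-site shift are not stated there, so their effect on the peaks is unknown. The authors deposited 1 peak list per library with, for each peak, an integer score, the fold enrichment at the summit as a linear ratio, and −log10 values of the p-value and q-value. Only fold and −log10 q were used, to describe or filter peaks. Folds of both lines printed side by side come from separate lists, and differences between them were not tested. The deposited lists hold no read counts, so depth is unknown and no floor could be given; the lowest −log10 q was 1.37 in 293T and 1.32 in J76.

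No source used here gives the build. The contig names are those of GRCh38, and all positions are given in it, counted from 1. Genes (19974 protein-coding), promoter windows and miRNAs came from RefSeq tables of GRCh38.p14. Without a genome sequence, motifs were not searched in the members themselves. Python 3.11.15 with numpy 2.4.6 and pandas 2.3.3 joined and counted peaks, after the joining and overlap steps were tested on simulated peaks. Shares carry 95% Wilson intervals (scipy 1.17.1), which cover counting error only. No test between the lines was possible with 1 library per line.

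The members and gene lists were chosen with earlier results of these data known. Named clusters were the 12 with the most peaks, the 4 densest of at least 6 peaks, the 4 with the highest fold, and up to 3 per gene list; genes with several clusters, clusters covered by at least 50%, miRNAs, list genes beyond these, the spacing comparison and the 5 windows inside members were picked with their values known. Candidates were joined over gaps of up to 12.5 kb. The alternatives used other q-value minimums, stitching distances, cluster sizes, distal distances and overlap rules, equal list lengths, and leaving out regions of high 293T to J76 ratio. Distance from lncRNA ends was added after seeing the data. Peaks on chromosome Y and on unplaced contigs did not enter the counts. Some genes that the naming rule picks are not reported here.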

Additional observations from a re-analysis of the deposited data

Results flagged for a closer look

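On unplaced contigs, which the counts above leave out, 30 of 148 293T-only peaks lay in 6 groups of at least 4 peaks joined over the same distance, without regard to gene ends. They are signal outside the main measurement, and no share joined in the same way was computed to set beside them. These contigs held 528 peaks in the 293T list and 674 in the J76 list.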

How the results depend on the processing

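No paired analysis was possible because each line has 1 library and no result comes from a test. The 1503 clusters and 7303 members changed with the stitching distance, the minimum number of peaks and the strength of the peaks. They became 230 clusters with 991 members (1.93% of candidates) at 5 kb and 3082 with 17968 (35.0%) at 25 kb. A minimum of 3 peaks gave 3767 with 14095 (27.4%), and 6 peaks gave 291 with 2112 (4.11%). A −log10 q of at least 5 gave 493 with 2293 (7.13%), at least 10 gave 78 with 355 (2.07%), and equal list lengths gave 364 with 1683 (5.92%). The clustered share was 13.4% with lncRNA ends barred, 13.8% with distal over 5 kb, 13.5% with no J76 peak within 1 kb, 15.2% with 50% reciprocal overlap and 13.1% without regions of high ratio. The share of members in a gene body was 52.4% and 60.2% at −log10 q of at least 10 and 5, and 53.5% and 61.1% at 3 and 6 peaks. It was 58.9% with lncRNA ends barred, 54.0% with reciprocal overlap and 61.7% with equal list lengths. At 25 and 5 kb it was 53.2% and 61.4%, and without regions of high ratio 57.7%. The 47.4% of other distal 293T-only peaks belongs to the main rule and was not computed again under these settings, so the difference was not followed across them. The share of neighbours with a 293T-only boundary peak was 22.4% at −log10 q of at least 10 and 13.8% with equal list lengths. The ratio of 293T to J76 clusters reversed to 0.768 with equal list lengths; it was 1.95 and 2.54 at −log10 q of at least 10 and 5, 3.27 at 3 peaks, 3.25 with reciprocal overlap, 2.99 at 5 kb and 3.02 without regions of high ratio. Equal list lengths remove the weakest 293T peaks by construction, and so bar fewer J76 peaks from being candidates. The cause of the other changes was not tested. Of the 62 named clusters, 10 were still found at −log10 q of at least 10, 37 at 5, 21 at a 5 kb stitching distance and 34 with equal list lengths.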
